A study of Mus musculus with 16 samples.

Results

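Interferon-stimulated genes and the sensors of nucleic acids in the cytosol were followed in muscle stem cells (MuSCs) of control mice and of mice with a conditional knockout of the telomere-binding protein TRF2, before and after muscle injury. The set was chosen as a list of 41 named genes, of 24411 in the deposited table, and all 41 were present. The rule used gene names and no measured value, although earlier results of these data were known when it was written. The table lists cGAS as Mb21d1, STING as Tmem173 and RIG-I as Ddx58. The 16 RNA-seq libraries formed 4 groups of 4. Control cells, named wild type in the records, and TRF2 MuSC-cKO cells, named TRF2 knockout there, came either from uninjured skeletal muscle or from tibialis anterior muscle 3 days after injection of 10 µl of notexin, a myotoxin from snake venom (3 DPI). In the knockout mice, floxed Terf2 alleles are recombined by a tamoxifen-inducible Cre driven from the Pax7 locus, so that only cells with Pax7 activity and their progeny can lose the gene. The mice were on a C57BL/6 background, and whether the control mice carried the Cre and received tamoxifen is not given in the records used here. MuSCs were sorted as cells negative for CD45, CD31, CD11b and Sca1 and positive for α7-integrin together with VCAM or CD34. The study states in general terms that its experiments had biological replicates, but no record ties each library of a group to its own mouse, and the p-values measure only the spread between these libraries.

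Cells detect foreign or misplaced nucleic acids with a small set of receptors. RIG-I and MDA5 (encoded by Ifih1) bind RNA and signal through the mitochondrial adaptor MAVS, while cGAS binds DNA in the cytosol and makes a cyclic dinucleotide that activates STING. Both routes converge on the kinase TBK1, which phosphorylates the transcription factor IRF3 and, where it is present, IRF7, and these switch on type I interferon genes. Secreted interferon then acts through its receptor on a complex called ISGF3, which includes STAT2 and IRF9 and binds the interferon-stimulated response element in the promoters of a large set of antiviral genes. Uncapped telomeres and micronuclei are known sources of cytosolic DNA, and macrophages that enter injured muscle are known producers of and responders to interferon.

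The promoters of several members carry the sequence that ISGF3 reads, and the members with 2 or more copies of its core are shown because such promoters were the rarest among all genes. In RefSeq windows from 250 bases before to 50 bases after the start of each gene (build GRCm38.p6), available for 31 of the 41 members, the response element core was searched as GAAA, any 2 bases, GAAA on both strands. In the lines that follow, each read 5′ to 3′ on the gene's own strand and ending at or before the transcription start, capitals mark the bases of the core; TTTC marks a core on the opposite strand.
Isg15, chr4:156200860-156200911, minus strand: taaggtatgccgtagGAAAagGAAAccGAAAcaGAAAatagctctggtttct
Oas1a, chr5:120907526-120907560, minus strand: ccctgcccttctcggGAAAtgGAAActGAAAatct
Bst2, chr8:71537572-71537617, minus strand: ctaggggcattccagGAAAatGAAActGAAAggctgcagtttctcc
Ifit1, chr19:34640770-34640828, plus strand: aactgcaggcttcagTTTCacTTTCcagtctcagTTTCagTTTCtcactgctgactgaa
Ifit3, chr19:34583358-34583431, plus strand: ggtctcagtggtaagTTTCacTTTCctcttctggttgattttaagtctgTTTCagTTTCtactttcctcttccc
Gbp3, chr3:142559984-142560029, plus strand: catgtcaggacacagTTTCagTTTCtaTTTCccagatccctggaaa
In Isg15 the GAAA repeats at a fixed spacing give 3 overlapping cores, and in Oas1a, Bst2 and, on the opposite strand, Gbp3 they give 2. Ifit1 and Ifit3 have 2 separate cores each. In all, 15 of the 31 members (48.4%) had at least 1 core, against 3.99% of 27025 genes in the same windows, and 6 (19.4%) had 2 or more, against 0.266%. The shorter gamma-activated site, TTC, any 3 bases, GAA, was found in 7 of 31 members (22.6%) and in 9.55% of all genes. Irf7, Irf1, Irf3, Irf9, Tbk1 and cGAS had no core in this window, which says only that these letters are absent there.

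Many members lie beside each other in the genome (GRCm38, GENCODE M21). Ifit1, Ifit2 and Ifit3 share chr19:34550694-34650009, Oas1a, Oas2 and Oas3 share chr5:120730333-120907521, and Mx1 and Mx2 share chr16:97447035-97560900. The guanylate-binding protein genes Gbp2, Gbp3 and Gbp7 lie in chr3:142530342-142638008, Rsad2 and Cmpk2 in chr12:26442746-26479837, and Parp14, Dtx3l and Parp9 in chr16:35832874-35972605. Gene models of Dtx3l and Parp9 overlap on opposite strands, and the strand setting of the counting is not given in the sources used here. The IFIT, OAS, MX and guanylate-binding genes have close paralogs, so reads may have been divided among them, and Mx2 is annotated as a polymorphic pseudogene. All other members are annotated as protein coding.

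Library totals ran from 620406 to 1351095 estimated counts, and 3 counts, the limit used for detection, corresponded to between 2.42 and 4.50 counts-per-million (CPM, scaled by the trimmed mean of M-values). One library stood apart. TRF2 MuSC-cKO 3 DPI replicate 3 had counts in 15387 genes, against 19996 to 21879 in the other 15, and 6 members (cGAS, STING, Tbk1, Irf3, Usp18 and Rsad2) had no count in it. Terf2 itself was at 64.7 to 93.1 CPM in uninjured control and 26.6 to 57.0 CPM in uninjured TRF2 MuSC-cKO libraries, which did not overlap (p = 0.0286 in a two-sided exact permutation test, which 4 against 4 libraries cannot go below). At 3 DPI it was at 34.5 to 47.4 CPM in control. In the knockout libraries it was at 51.2, 64.2 and 87.1 CPM in replicates 1, 3 and 4, above every control library. Replicate 2, at 21.2 CPM, was below every control library (exact permutation p = 0.4 between the groups, two-sided). The Terf2 level thus did not separate the 3 DPI libraries by label, and the knockout ones are named here as the libraries labelled TRF2 MuSC-cKO. A list of 13 macrophage and myeloid markers summed to 104.8 to 155.6 CPM in uninjured control, 163.5 to 201.7 CPM in uninjured TRF2 MuSC-cKO, 5580 to 7174 CPM in control 3 DPI and 2252 to 6735 CPM in TRF2 MuSC-cKO 3 DPI libraries. A list of 10 MuSC markers, Pax7 among them, summed to 3444 to 5428, 1860 to 2848, 797.3 to 1142 and 449.7 to 600.5 CPM in the same order. Transcripts of the MuSC markers were thus present in every group in sum, which does not show which cells carried them. The myeloid markers were above them in sum in every 3 DPI library. So were 7 fibroadipogenic progenitor markers, at 1443 to 2118 CPM in control 3 DPI and 1146 to 2323 CPM in TRF2 MuSC-cKO 3 DPI libraries.

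**Figure D1:**
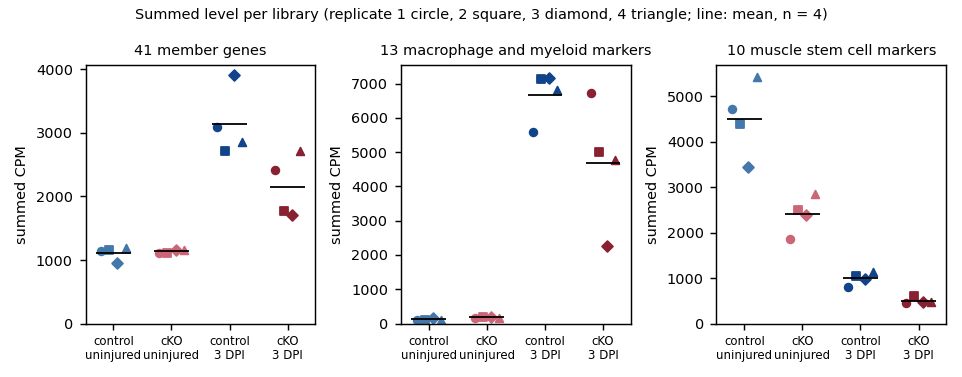
Summed CPM (vertical axes, from 0) of the 41 member genes, 13 macrophage and myeloid markers and 10 MuSC markers in each of the 16 libraries, by group; each point is 1 library and lines are means of 4. The members sum to 950 to 1187 CPM in every uninjured library and 1706 to 3915 CPM at 3 DPI, the myeloid markers are also higher at 3 DPI, and the MuSC markers are lower.

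In uninjured MuSCs the genes were present at low levels. On a per-length scale (transcripts-per-million, TPM, computed from the length-scaled table), 27 members in control and 25 in TRF2 MuSC-cKO exceeded the 95th percentile of 1512 chemosensory receptor genes, which MuSCs are not known to use and which served as a measure of background (12 and 20.9 TPM). Irf1, a factor induced by several cytokines, had the highest mean length-scaled level of the members, 89.4 TPM in control and 130.5 TPM in TRF2 MuSC-cKO, followed in both groups by Irf3 with 63.2 and 91.7 TPM. The antiviral effectors were divided by the background limit in uninjured control cells. Mx1 (5.16 TPM), Oas1a (5.17 TPM), Oas3 (6.06 TPM), Oas2 (7.14 TPM), Trim30a (7.50 TPM), Oasl1 (7.84 TPM), Rsad2 (8.61 TPM) and Ifit1 (9.21 TPM) were below it, while Ifit2 (17.2 TPM), Ifit3 (18.1 TPM), Oasl2 (20.2 TPM), Bst2 (30.5 TPM), Rtp4 (35.5 TPM) and all guanylate-binding and PARP group members were above it. The sensors were mostly above it, with Ifih1 at 16.3 TPM, RIG-I at 19.0 TPM and the RNA-binding kinase gene Eif2ak2 (PKR) at 20.6 TPM, while Dhx58 and Zbp1 were below it at 10.8 and 10.7 TPM. At 3 DPI, 40 members exceeded the limit in control (14.2 TPM) and 30 in the libraries labelled TRF2 MuSC-cKO (28.5 TPM).

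**Figure D2:**
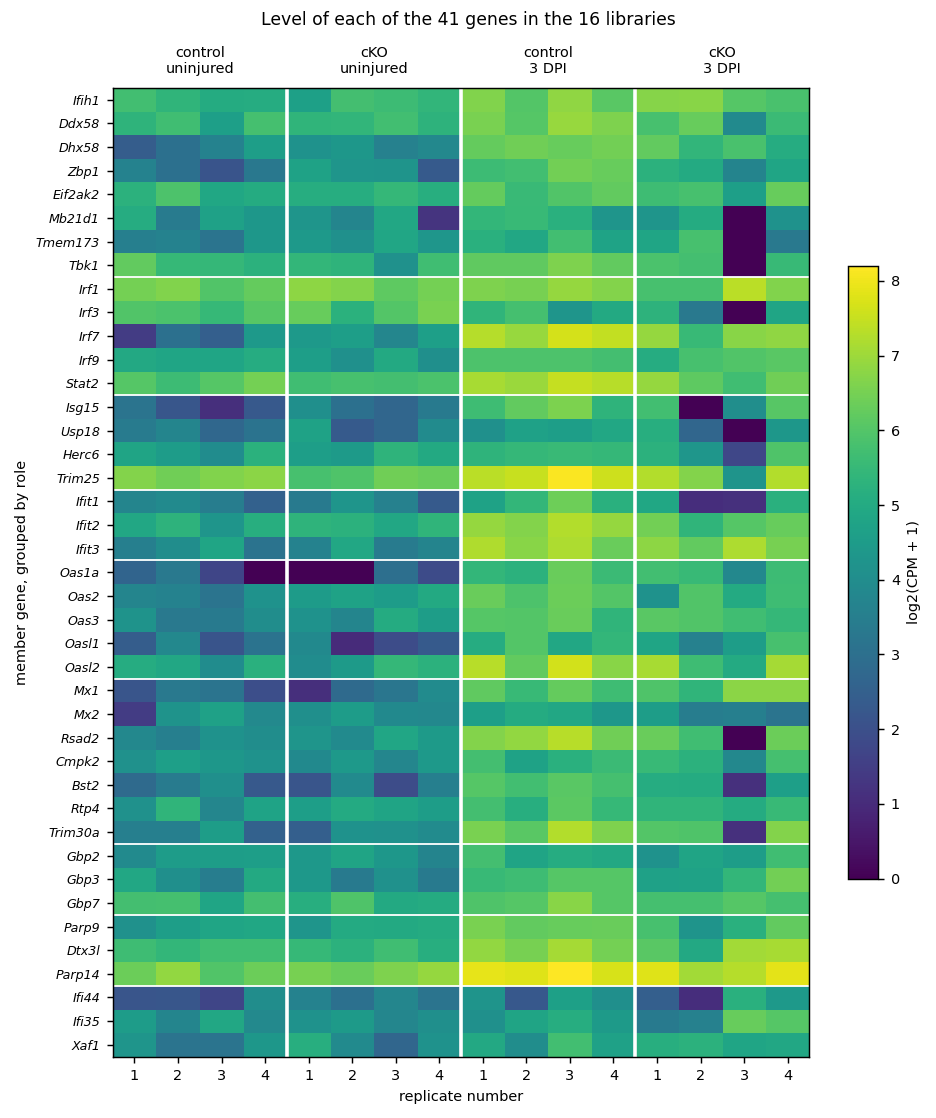
Level of each of the 41 members (rows, grouped by role) in each library (columns, 4 replicates per group) as log2(CPM + 1), from dark (0) to bright. Most rows are brighter in the 4 control 3 DPI columns than in the 8 uninjured columns, and TRF2 MuSC-cKO 3 DPI replicate 3 has 6 members at 0.

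The first comparison asked how the genes differ 3 days after injury in control cells. Of the 41 members, 29 rose and none fell (edgeR's quasi-likelihood test, adjusted p under 0.02 and more than 1.5-fold), where 10.8% of the 15356 genes tested rose. Of the 29, Zbp1, Isg15, Usp18, Ifit1, Oas1a, Oasl1, Mx1 and Bst2 had too few counts to be tested among uninjured libraries alone. Under the count filter they could be tested here only together with the 3 DPI libraries, where they were higher. In 31 members every 3 DPI library was above every uninjured one, which held for 11.8% of all genes. The median log2 fold change was 1.43 over the members and 0.07 over all genes tested. All 5 OAS genes, all 3 IFIT genes and all 3 genes of the PARP9-DTX3L and PARP14 group rose, as did 6 of 7 MX, viperin and other antiviral effectors, 5 of 8 sensors and adaptors, 3 of 5 transcription factors, 3 of 4 genes of the ISG15 system and 1 of 3 guanylate-binding genes. All 13 macrophage and myeloid markers also rose in this comparison, by 3.42 to 8.77 on the log2 scale, and all 10 MuSC markers fell. Of 7 fibroadipogenic progenitor markers, 5 rose and 1 fell (median 1.64), with sums of 556.4 to 894.5 CPM before and 1443 to 2118 CPM after injury, and the 1 neutrophil marker with enough counts rose by 2.22. Of 7 endothelial markers 1 rose and 1 fell, and none of the 3 lymphoid markers tested passed. Ptprc, which encodes the CD45 used to exclude cells in the sort, went from 10.2 to 16.8 CPM in uninjured control to 182.2 to 279.5 CPM, and Lyz2, a macrophage lysozyme, from at most 9.75 CPM to between 2068 and 2707 CPM. The part of these markers' cells in the members' rise was not tested, and in bulk RNA a larger number of cells of a type and more RNA per cell cannot be told apart.

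Among the sensors and adaptors, the largest differences were in Zbp1 and Dhx58. Zbp1, a sensor of Z-form nucleic acids that can trigger necroptosis, was at 11.5, 7.09, 3.41 and 8.64 CPM in the uninjured control libraries and at 48.0, 51.2, 85.8 and 76.6 CPM at 3 DPI. Every injured library exceeded every uninjured one, a log2 fold change of 3.11 ± 0.361 (SE, n = 4 and 4, edgeR adjusted p = 2.16e-09). Dhx58, which encodes LGP2, a regulator of RIG-I and MDA5, went from 4.40 to 23.1 CPM before injury to 74.9 to 86.3 CPM after it (log2 fold change 2.88 ± 0.339, adjusted p = 3.32e-09). STING rose by a log2 fold change of 1.57 ± 0.387 (adjusted p = 0.00158), RIG-I by 1.20 ± 0.256 (adjusted p = 0.000254) and MDA5 by 1.17 ± 0.259 (adjusted p = 0.000432). The RIG-I call was lost with limma's robust fit, with the length-scaled table and with all 16 libraries in 1 fit (adjusted p from 1.09e-05 to 0.04 over 17 alternatives with edgeR, limma or DESeq2), and the MDA5 call with the length-scaled table alone (2.91e-05 to 0.0295). The DNA sensor cGAS, at 9.75 to 32.6 CPM before and 18.6 to 45.5 CPM after injury, did not pass the test (log2 fold change 0.74 ± 0.370, adjusted p = 0.155), and neither did Tbk1 (0.70 ± 0.251, adjusted p = 0.0345) or PKR (0.75 ± 0.275, adjusted p = 0.0405).

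Of the transcription factors, Irf7 had the largest log2 fold change of all 41 members. IRF7 is the interferon-induced factor that amplifies type I interferon production. Its level was 1.76, 7.09, 4.54 and 20.2 CPM in the uninjured control libraries and 154.4, 120.4, 201.4 and 171.7 CPM at 3 DPI. The groups were far apart, with a log2 fold change of 4.31 ± 0.353 (edgeR adjusted p = 2.33e-11). Both ISGF3 subunits on the list rose, Stat2 from 48.7 to 88.4 CPM to 125.1 to 177.3 CPM (log2 fold change 1.23 ± 0.216, adjusted p = 1.38e-05) and Irf9 from 27.3 to 32.7 CPM to 53.2 to 58.8 CPM (1.01 ± 0.277, adjusted p = 0.00449). Irf1 did not pass the test at 0.36 ± 0.215 (adjusted p = 0.25). Irf3, the factor that acts directly below TBK1 and is not itself induced by interferon, was the only member with an estimate below 0, at -0.64 ± 0.292, and did not pass after adjustment (adjusted p = 0.11).

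The ISG15 system attaches and removes a ubiquitin-like protein. Isg15, the modifier itself, was at 7.92, 3.55, 1.14 and 3.84 CPM in uninjured control, close to the detection limit, and at 49.5, 74.9, 95.4 and 39.5 CPM at 3 DPI. This was a log2 fold change of 3.95 ± 0.420 (edgeR adjusted p = 2.34e-10). Trim25, a ubiquitin ligase that activates RIG-I, rose by 1.11 ± 0.204 (adjusted p = 3.19e-05) and Usp18, which removes ISG15 from proteins and dampens receptor signalling, by 1.44 ± 0.446 (adjusted p = 0.0132), the latter resting on 5 to 14 counts per uninjured and 11 to 36 counts per injured library. Herc6, the ISG15 ligase of mice, had an estimate of 0.82 ± 0.318 that did not pass (adjusted p = 0.0536).

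The effector families followed the same direction. IFIT proteins bind viral RNA, and Ifit3, at 10.6, 15.1, 27.3 and 7.68 CPM in uninjured control libraries, was at 146.9, 105.2, 145.5 and 79.0 CPM after injury (log2 fold change 3.03 ± 0.310, edgeR adjusted p = 1.36e-10). Ifit1 and Ifit2 rose by 2.20 and 2.06. OAS enzymes make the second messenger that activates RNase L, and the OAS members rose by 2.29 (Oasl2) to 3.62 (Oas1a), Oas1a from at most 8.86 CPM to at least 37.9 CPM. Mx1, a dynamin-like GTPase that blocks incoming viral particles, was at 3.52, 8.86, 7.95 and 2.88 CPM before and 71.9, 45.5, 76.1 and 49.2 CPM after injury (log2 fold change 3.41 ± 0.393, adjusted p = 1.90e-09), whereas the pseudogene-annotated Mx2 did not pass (0.91 ± 0.454, adjusted p = 0.159). Trim30a, a restraint on innate signalling, rose by 3.14, Rsad2 (viperin, which makes a chain-terminating nucleotide) by 3.08, and Bst2 (tetherin, which holds budding virions at the cell surface) by 2.80. Rtp4 and Cmpk2 rose less, by 1.11 and 1.09. Parp9, Parp14 and Dtx3l, ADP-ribosylation and ubiquitination enzymes that support interferon signalling, rose by 1.80, 1.54 and 1.20, and of the guanylate-binding proteins, which attack pathogen vacuoles, Gbp3 rose by 1.43 while Gbp2 and Gbp7 did not pass at 0.81 and 0.71. Ifi44, Ifi35 and Xaf1 did not pass, at 1.36, 0.40 and 1.23. Of the 20 members that rose and had a promoter window, 12 held a response element core, and of the other 11 members 3 did. Irf7, with the largest difference, was among the 8 without one.

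Control 3 DPI replicate 3 had the highest level of its group in 30 of the 41 members, where 24.2% of all genes were highest in that library, and a summed member level of 3915 CPM against 2723 to 3093 CPM in the others. Without it, 25 members rose, all of them among the 29, against 8.45% of all genes. The calls of Cmpk2, Rtp4 and Usp18 were the least secure, each kept on leaving out 2, 3 and 2 of the 8 libraries in turn; Irf9 was lost without uninjured replicate 2, and STING without 3 DPI replicate 3. Libraries whose record names share a prefix, 1 uninjured and 2 injured control libraries, put both injured libraries above the uninjured one in 39 of the 41 members, against 39.8% of all genes tested, and below it in 1, with a median log2 difference of 1.16. What the prefix stands for is not given in the sources used here.

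**Figure D3:**
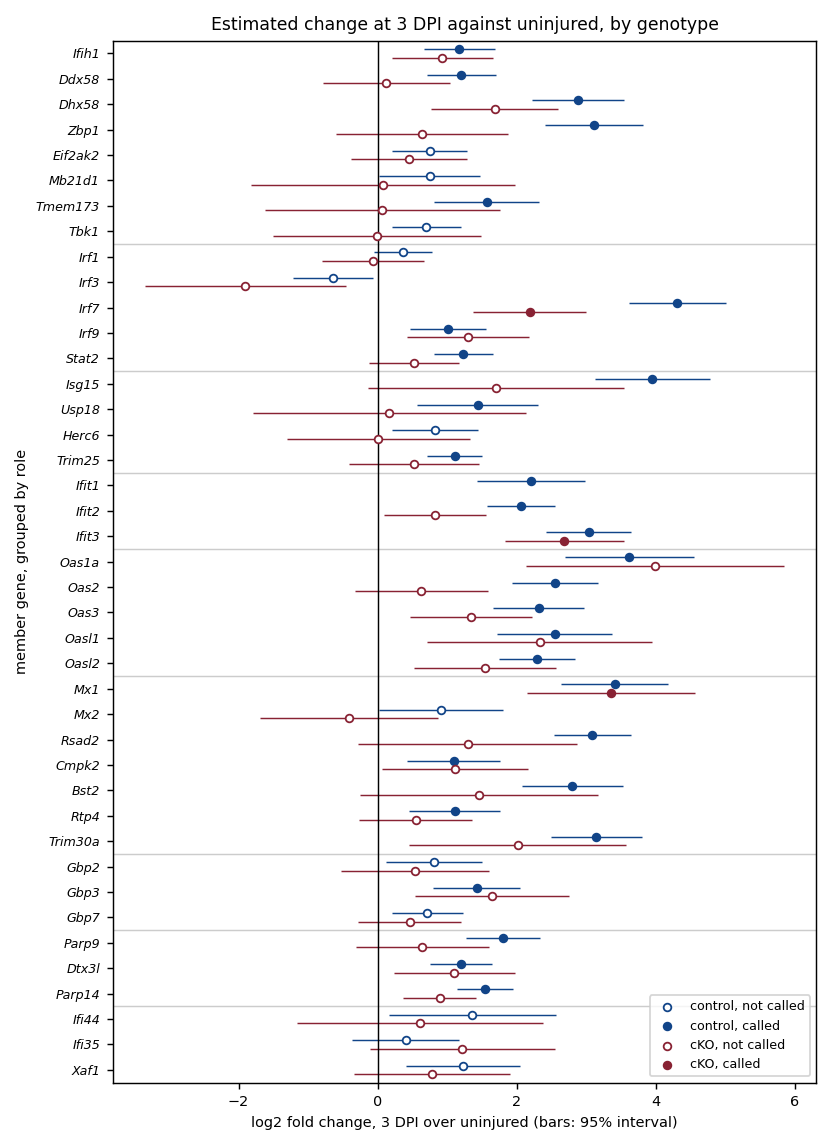
Log2 fold change at 3 DPI over uninjured (horizontal axis) for each member (rows, by role) in control (blue) and TRF2 MuSC-cKO (red); bars are 95% intervals from the fit, and filled points passed the test. In all, 29 control points and 3 knockout points are filled, Irf7, Ifit3 and Mx1 in both, and the knockout intervals are wider.

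The same comparison in the TRF2 MuSC-cKO libraries, which share no library with the control comparison, asked how the genes differ with injury in cells labelled TRF2 knockout. Of the 40 members tested, 3 rose, Ifit3, Mx1 and Irf7, and none fell, where 2.43% of the 14578 genes tested rose. Mx1 had too few counts to be tested among uninjured libraries alone, as did Oas1a, Oasl1, Isg15, Bst2, Zbp1, Usp18 and Ifi44. Under the count filter these genes could be tested here only together with the 3 DPI libraries, where their means were higher. At an unadjusted p under 0.05, 15 members were higher (8.66% of all genes), and in 12 members all injured libraries were above all uninjured ones (6.81% of all genes). The median log2 fold change was 0.80 over the members and 0.01 over all genes tested. The spread between libraries was larger here, with a biological coefficient of variation of 0.523 against 0.276 in control. The macrophage and myeloid markers also rose in 11 of 13 cases, with estimates of 2.59 to 7.01 over the 13, as did 1 of 7 fibroadipogenic progenitor markers, and their part in the members' difference was not tested.

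Mx1 was at 1.15, 6.08, 8.35 and 14.6 CPM in uninjured TRF2 MuSC-cKO libraries and at 60.3, 40.2, 109.4 and 108.6 CPM at 3 DPI. The groups did not overlap, and the log2 fold change of 3.35 ± 0.614 (edgeR adjusted p = 0.00378) stood beside 3.41 in control; the call was lost without uninjured replicate 2 and with the length-scaled table. Ifit3 went from 11.5, 29.4, 9.74 and 12.0 CPM to 111.6, 74.8, 146.3 and 91.6 CPM (2.68 ± 0.439, adjusted p = 0.00156). For Irf7 the uninjured libraries were at 20.6, 23.3, 12.5 and 23.9 CPM and the injured ones at 119.5, 44.7, 107.1 and 113.1 CPM (2.19 ± 0.415, adjusted p = 0.00477), with the call lost on leaving out any 1 of the 4 uninjured libraries or of 3 DPI replicates 1 and 4, and with the replicate number as a block (2.01 to 2.46 over 16 alternatives). Oas1a had the largest estimate, 3.99 ± 0.950, from a base of at most 5 counts per library, and just missed the threshold (adjusted p = 0.0216). Isg15 ranged from 0 to 65.6 CPM among the injured libraries, 0 counts in replicate 2, which allows up to 3.35 CPM, and did not pass (1.70 ± 0.939, adjusted p = 0.421).

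Replicate 3 of these injured libraries decided much of the count. In it Trim30a and Bst2 were at 1.19 CPM, where the other 3 were at 60.3 to 101.8 and 23.8 to 33.0 CPM, while Irf1 (160.6 CPM), Ifi35 (77.3 CPM) and Mx1 (109.4 CPM) were at their highest of the group. Left out, 11 members rose instead of 3, against 5.16% of all genes, the original 3 with Oas1a (4.34, edgeR adjusted p = 3.14e-05), Trim30a (2.45, adjusted p = 8.45e-05), Oasl2 (1.86, adjusted p = 0.000791), Rsad2 (1.75, adjusted p = 0.00172), Parp14 (0.99, adjusted p = 0.00993), Dhx58 (1.64, adjusted p = 0.0125), Oasl1 (2.46, adjusted p = 0.0197) and Oas3 (1.42, adjusted p = 0.0199). The library also had the lowest summed myeloid marker level of the group, 2252 CPM, where the others were at 4782 to 6735 CPM. Within 1 record name prefix, 2 injured against 1 uninjured library, 24 of the 40 members tested were higher in both, against 28.5% of all genes, and 4 lower in both, with a median log2 difference of 0.69.

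**Figure D4:**
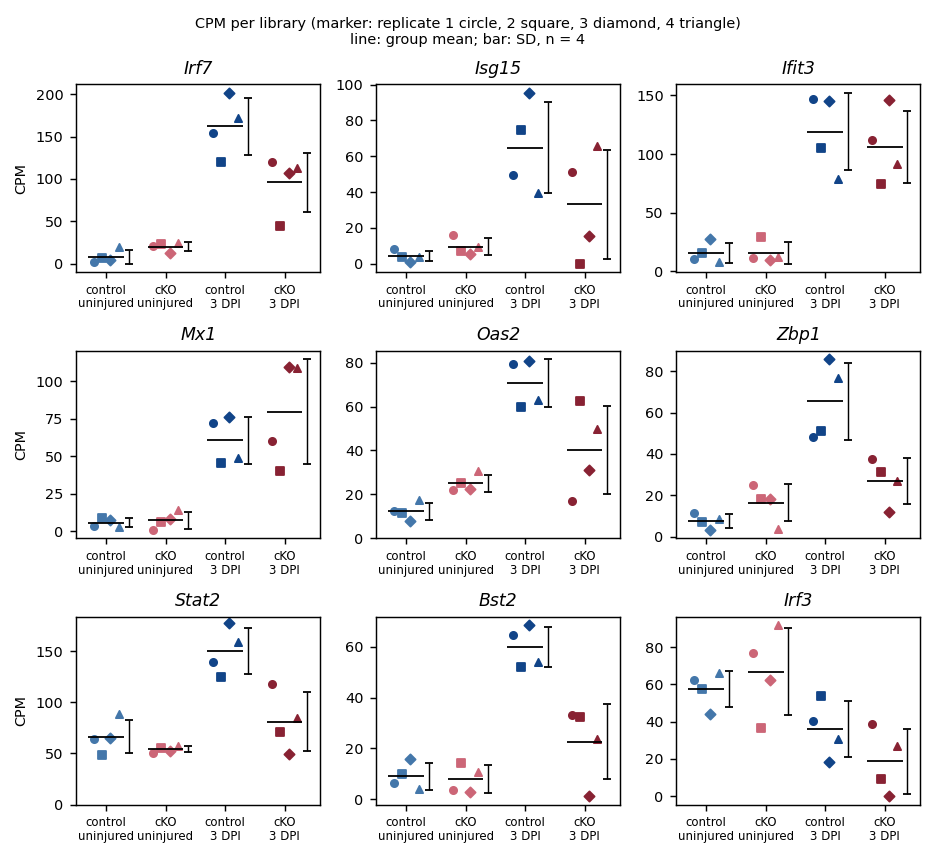
CPM (vertical axes) of 9 members in each library, with the group mean (line) and SD (bar, n = 4). Irf7, Isg15, Ifit3, Mx1 and Oas2 have higher means at 3 DPI than uninjured in both genotypes, Zbp1, Stat2 and Bst2 in TRF2 MuSC-cKO lie below every control 3 DPI library, and Irf3 reaches 0 in TRF2 MuSC-cKO 3 DPI replicate 3.

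Whether injury and genotype combine was tested by the interaction term over all 16 libraries, the injury difference in TRF2 MuSC-cKO minus that in control. No member passed (edgeR, 0 of 41), where 0.0178% of 16822 genes did. At an unadjusted p under 0.05 the interaction was below 0 for 4 members and above 0 for none, where 2.17% of all genes were below. These were Zbp1 (-2.36 ± 0.696, adjusted p = 0.514), Irf7 (-2.01 ± 0.614, adjusted p = 0.547), Oas2 (-1.83 ± 0.561, adjusted p = 0.548) and Ifit2 (-1.13 ± 0.434, adjusted p = 0.73). Only 32 of the 41 members had enough counts among uninjured libraries alone. The others, Zbp1 among them, could enter this fit only together with the 3 DPI libraries, where Zbp1 was highest in control. The estimate was below 0 in 34 of 41 members, against 48.4% of all genes, with a median of -0.60 over the members and 0.03 over all genes. Of the 13 macrophage and myeloid markers only 1 had an interaction estimate above 0, with a median of -1.08. At an unadjusted p under 0.05 (edgeR), 6 of these markers were below 0. Of the 10 MuSC markers 6 had an estimate above 0, median 0.18. The part of these markers' cells in the members' difference was not tested. Of the 29 members that rose in control, 28 could be tested in the knockout libraries; all 28 had an estimate above 0 there, and 24 (85.7%) had the larger estimate in control. Of all 1545 genes that rose in control and were tested in both, 79.6% had the larger estimate in control. In the knockout libraries 3 of the 28 members (10.7%) passed the test, against 22.5% of those 1545 genes. The number of members that passed in the knockout libraries depended on TRF2 MuSC-cKO 3 DPI replicate 3. Without that library, 11 of the 41 members passed in the knockout libraries, against 5.16% of all genes. These are shares of all members and of all genes tested. The share among genes that rose in control is not given without that library, so the 22.5% has no counterpart there. DESeq2 also called 0 members and 0.143% of all genes, but gave an adjusted p to only 25 of the 41. Limma's robust fit on log2 CPM, the kind of fit used in the study, called 2, Irf7 (-2.14, adjusted p = 0.0109, from 0.0109 to 0.979 over 23 alternatives) and Oas2 (-1.74, adjusted p = 0.019, from 0.019 to 0.935), where it called 0.464% of all genes lower.

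At 3 DPI itself the genotypes were compared directly, 4 control libraries against 4 labelled TRF2 MuSC-cKO. Neither any member nor any other of the 14559 genes tested passed with edgeR (0 called, 0% of all genes), and limma called 28 genes (0.192%), none a member. DESeq2 called 22 genes (0.151%), but it gave an adjusted p to only 14 of the 41 members, which left Zbp1 and Bst2 among the 27 that it could not call. The members' estimates nevertheless lay on 1 side: 36 of 41 were below 0, against 49.9% of all genes, with a median of -0.55 over the members and 0.00 over all genes. Ifit1, among these 36, had too few counts to be tested among the knockout libraries alone. It could be tested here only together with the control 3 DPI libraries, where its mean was higher. For 10 members every knockout library was below every control library, against 5% of all genes, namely Dhx58, Zbp1, Tbk1, Irf7, Stat2, Trim25, Ifit2, Rsad2, Bst2 and Parp9. At an unadjusted p under 0.05, 5 were lower and 0 higher, where 3.58% of all genes were lower. Stat2 was at 139.4, 125.1, 177.3 and 159.6 CPM in control and 118.4, 71.4, 49.96 and 84.8 CPM in the knockout libraries, without overlap (-0.84 ± 0.281, edgeR adjusted p = 0.455). Bst2 was at 64.5, 52.1, 68.4 and 54.0 CPM against 33.0, 32.4, 1.19 and 23.8 CPM (-1.35 ± 0.597, adjusted p = 0.523). The remaining 3 were Zbp1 (-1.22 ± 0.411, adjusted p = 0.455), Ifit2 (-0.80 ± 0.290, adjusted p = 0.465) and Irf7 (-0.70 ± 0.314, adjusted p = 0.524). None of these is a called difference.

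Several other members had estimates near 0 at 3 DPI, among them Ifit3 (-0.10 ± 0.304, 95% interval -0.70 to 0.49), Irf9 (-0.01 ± 0.329, -0.65 to 0.64), MDA5 (0.00 ± 0.315, -0.62 to 0.62) and Oas3 (-0.11 ± 0.328, -0.75 to 0.54). The estimate was above 0 in 5 members, MDA5, Mx1 (0.46), Ifi35 (0.80), Xaf1 (0.14) and Ifi44 (0.07). For the DNA-sensing route, cGAS was at 18.6 to 45.5 CPM in control and 0 to 32.4 CPM in the knockout libraries (-1.01 ± 0.755, adjusted p = 0.686), STING at 25.8 to 51.1 and 0 to 54.7 CPM (-0.59 ± 0.808, adjusted p = 0.842), Tbk1 at 71.9 to 96.4 and 0 to 58.1 CPM (-0.97 ± 0.676, adjusted p = 0.673) and Irf3 at 18.3 to 54.0 and 0 to 38.7 CPM (-0.90 ± 0.797, adjusted p = 0.737). Each of these zeros came from replicate 3, and without it the estimates were -0.61 for cGAS, -0.19 for STING, -0.57 for Tbk1 and -0.50 for Irf3. By mean length-scaled level in the knockout libraries, cGAS (10.9 TPM), STING (27.9 TPM) and Irf3 (22.6 TPM) were below the background limit of 28.5 TPM. Tbk1 (33.8 TPM) was above it. In control all 4 genes were above the limit of that group. With that library left out, 36 members had an estimate below 0, 35 of them also below 0 with it, against 48.3% of all genes, and 9 were lower at an unadjusted p under 0.05, against 6.5% of all genes, with a median of -0.43 over the members. Of the myeloid markers, 12 of 13 had estimates below 0 in this comparison, median -0.55, and 0 passed, and of the 10 MuSC markers all had estimates below 0, median -0.57. The 3 lymphoid and plasmacytoid dendritic cell markers tested had estimates above 0, median 1.05, and 0 passed. The 9 markers of that list summed to 39.5 to 103.4 CPM in control and 63.8 to 209.4 CPM in the knockout libraries. Their part in the members' difference was not tested. Between the 2 control and 2 knockout libraries with a shared record prefix, 22 of 41 members were lower in both knockout libraries than in either control library, against 18.7% of all genes, and 3 higher.

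**Figure D5:**
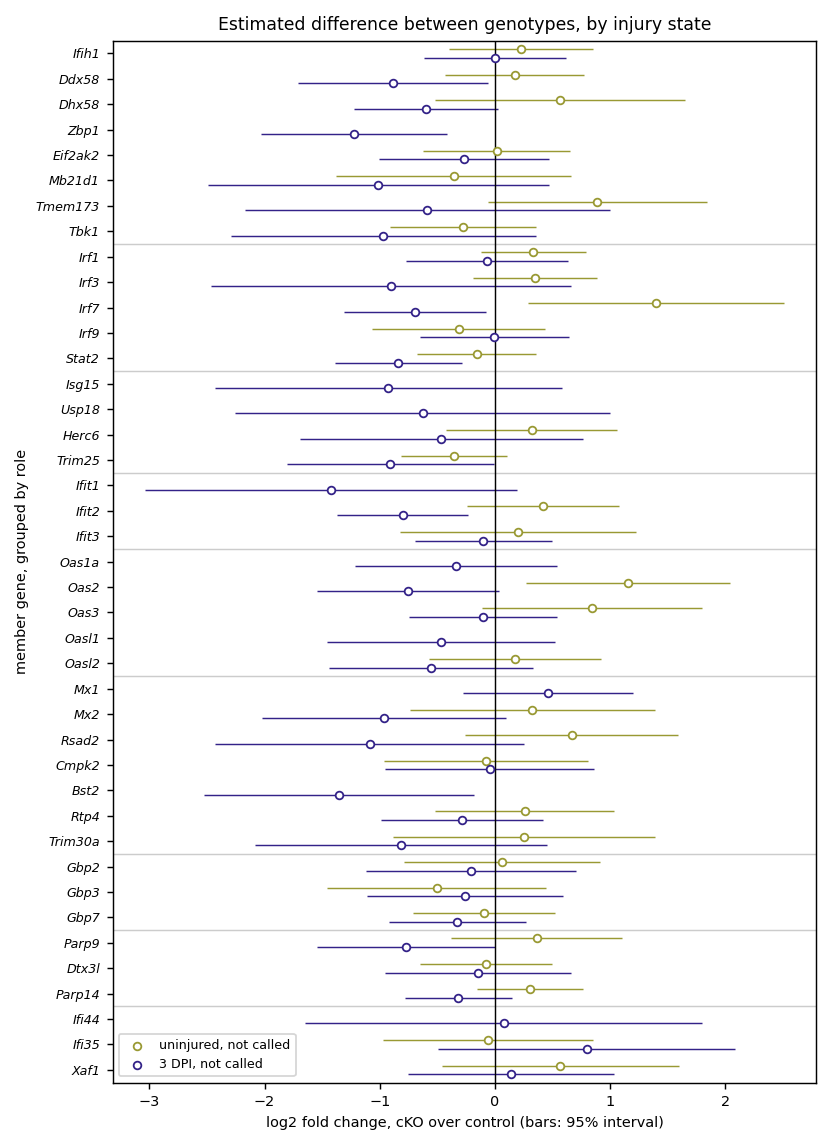
Log2 fold change of TRF2 MuSC-cKO over control (horizontal axis) for each member in uninjured cells (yellow) and at 3 DPI (purple), with 95% intervals; open points did not pass the test, and genes without a yellow point had too few counts before injury. No point is filled, and 36 of 41 purple points lie left of 0.

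In uninjured cells, 32 of the 41 members had enough counts to be tested between genotypes, and none passed (edgeR, 0 called), where 3.22% of 14048 genes did. At an unadjusted p under 0.05, 2 were higher in TRF2 MuSC-cKO and 0 lower, where 8.98% of all genes were higher. Oas2 was at 12.3, 11.5, 7.95 and 17.3 CPM in control and 21.8, 25.3, 22.3 and 30.6 CPM in TRF2 MuSC-cKO. Its groups did not overlap (log2 fold change 1.15 ± 0.453, edgeR adjusted p = 0.136). The share of all genes without overlap is not given for this comparison. Irf7, with control libraries at 1.76 to 20.2 CPM and knockout libraries at 12.5 to 23.9 CPM, had an estimate of 1.40 ± 0.568 (adjusted p = 0.152). By length-scaled level, Oas2 was below the background limit in control (7.14 against 12 TPM) and in TRF2 MuSC-cKO (18.6 against 20.9 TPM). Irf7 was below it in control (10.7 TPM) and above it in TRF2 MuSC-cKO (32.8 TPM). The limit was itself higher in TRF2 MuSC-cKO, and the part of background in these 2 estimates was not tested. Limma's robust fit called both, Irf7 at 1.61 (adjusted p = 0.0141, from 0.0141 to 0.4 over the 15 alternatives that gave one) and Oas2 at 1.08 (adjusted p = 0.0168, from 0.0168 to 0.349), where it called 1.12% of all genes higher. DESeq2 called 4.43% of all genes but could call neither Irf7 nor Oas2, which were among the 17 of 32 members without an adjusted p; the other 15 were not called. The median estimate was 0.24 over the 32 members and 0.06 over all genes.

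The DNA-sensing route was not detectably different between uninjured genotypes. cGAS was at 9.75 to 32.6 CPM in control and 1.33 to 29.2 CPM in TRF2 MuSC-cKO (-0.36 ± 0.522, edgeR adjusted p = 0.741, 95% interval -1.38 to 0.66). STING was at 7.95 to 19.2 and 16.2 to 27.8 CPM (0.89 ± 0.483, adjusted p = 0.306, interval -0.06 to 1.84). Tbk1 (-0.28 ± 0.322, adjusted p = 0.668) and Irf3 (0.35 ± 0.274, adjusted p = 0.509) also did not pass. The remaining sensors had estimates between 0.02 (PKR) and 0.56 (Dhx58), with Zbp1 below the count filter, and the remaining transcription factors were Irf1 at 0.33, Irf9 at -0.32 and Stat2 at -0.16. In the same libraries 7 of 10 MuSC markers were lower in TRF2 MuSC-cKO (Vcam1, Itga7, Cdh15, Calcr, Sdc4, Cd34 and Msc), none of the 8 myeloid markers tested passed although their sums did not overlap between genotypes, and among fibroadipogenic markers Dcn was higher and Dpt lower. The record name prefixes of the uninjured libraries are not shared between genotypes, so prefix and genotype cannot be told apart there.

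Genes of the pathway outside the list were described in the same way. The 20 interferon genes sought (type I, II and III) were too low for testing in every comparison; Ifnb1 had 7, 12, 11 and 26 counts in all in the uninjured control, uninjured TRF2 MuSC-cKO, control 3 DPI and TRF2 MuSC-cKO 3 DPI groups, and Ifng 4, 10, 19 and 7. Summed over the 20, the level was 26.1 to 52.0, 45.9 to 66.9, 23.1 to 43.5 and 68.3 to 103.5 CPM in the same order, so that at 3 DPI every library labelled TRF2 MuSC-cKO was above every control library. The background limit of the chemosensory receptor genes was also higher there, at 28.5 against 14.2 TPM, and its part in the sums was not tested. Among the receptor chains and their kinases, Ifngr2 (2.27 ± 0.369, edgeR adjusted p = 3.62e-06), Il10rb (2.31 ± 0.282, adjusted p = 7.55e-09) and Ifnar2 (0.90 ± 0.250, adjusted p = 0.00535) rose after injury in control, and Il10rb also in TRF2 MuSC-cKO (2.14 ± 0.423, adjusted p = 0.00652). Of 17 adaptors, kinases and other sensors, 8 rose in control, against 10.8% of all genes, and 3 in TRF2 MuSC-cKO (Ifi204, Irf5 and Irf8), against 2.43%. Irf5, Irf8, Tlr7 and Tlr9, among the 8, are factors and receptors known from myeloid cells. Among restraints on the pathway, Samhd1 and the DNA exonuclease Trex1 rose in control by 2.56 and 1.84 and the RNA editor Adar by 1.21, while the feedback inhibitor Socs3 fell by 1.29 in control and by 2.26 in TRF2 MuSC-cKO. Of these restraints, 3 of the 15 tested rose in control, against 10.8% of all genes, and 1 of the 14 tested in TRF2 MuSC-cKO, against 2.43%. Of 43 further interferon-stimulated genes tested in control, 25 rose and none fell, and of 40 in TRF2 MuSC-cKO 5 rose (Sp100, Lgals3bp, Ly6e, Slfn2 and Shisa5), beside the same shares of all genes. Between genotypes no gene of these 4 lists passed at either state or in the interaction.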

How the data were processed

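RNA of sorted MuSCs was sequenced by the authors from random-primed, strand-specific total RNA libraries depleted of ribosomal RNA. Per the labels, reads were processed with Trim Galore 0.6.7, STAR 2.6.1d and Salmon 1.5.2 on GRCm38. Whether the molecular identifiers of the kit were used to collapse duplicates is not given in the sources used here, so limits taken from depth cover counting error only. The deposited tables were 1 of estimated counts and 1 of estimated counts scaled by length. The authors' estimated counts were rounded, and genes were kept by edgeR 4.0.16's filterByExpr, scaled by TMM and tested by its robust quasi-likelihood test in R 4.3.3, each comparison on its own 8 libraries and the interaction on 16. Calls needed an adjusted p (Benjamini-Hochberg, over all genes tested) under 0.02 together with a change above 1.5-fold. Fold changes are on the log2 scale as edgeR gives them by default; those of limma were taken on log2 CPM with a prior count of 2, which understates the changes of low genes. The study's own fit used limma; here limma 3.58.1 and DESeq2 1.42.0 were run among the alternatives. The TPM values were computed from the scaled table, whose ratio to the unscaled one fell with exon length (Spearman's rho -0.775 across 19308 genes, a description). Steps were tested on simulated data.

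The members and lists were chosen with earlier results of these data known. Named are all members called in any comparison, up to 5 with the smallest p where fewer were called, the sensors, adaptors and transcription factors, and, from the other lists, genes called between genotypes; further genes of those lists were named after their values were seen. Detection was limited to 3 counts in a library, and 95% intervals use 1.96 SE. Same-numbered libraries did not deviate together (correlation of deviations -0.111 to 0.111), so replicate numbers were not taken as pairs, and no 2 libraries of a group agreed within counting noise (lowest ratio of variance to counting noise 2.97). GENCODE M21 gave positions, none being given here for STING, and RefSeq the promoters. Results of 1 further gene on the lists are not reported here.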

Additional observations from a re-analysis of the deposited data

Results flagged for a closer look

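In groups of 4 libraries, the highest or lowest library was compared with the nearest other one, relative to the range (Dixon's test at 95%, 176 groups, 12 found, 6.82%, where chance gives about 1 in 20). Gbp7 was found in each group, with control uninjured replicate 3 low at 27.3 CPM (others 52.8 to 54.1), TRF2 MuSC-cKO uninjured replicate 2 high at 60.8 CPM (30.6 to 34.4), control 3 DPI replicate 3 high at 106 CPM (60.0 to 65.4) and TRF2 MuSC-cKO 3 DPI replicate 3 high at 64.2 CPM (53.5 to 54.3). Irf7 was low in TRF2 MuSC-cKO 3 DPI replicate 2 at 44.7 CPM, where the other 3 were at 107.1 to 119.5 CPM. Ifit3 was high in TRF2 MuSC-cKO uninjured replicate 2 at 29.4 CPM (9.74 to 12.0), and Eif2ak2 in replicate 3 of that group at 43.1 CPM (33.3 to 34.6). Parp9 was low in TRF2 MuSC-cKO uninjured replicate 1 at 18.4 CPM (30.6 to 31.9). Tbk1 was high in control 3 DPI replicate 3 at 96.4 CPM (71.9 to 74.2), and Irf9 low in replicate 4 at 53.2 CPM (58.5 to 58.8). Gbp2 was low in control uninjured replicate 1 at 14.1 CPM (22.2 to 23.1), and Ifi44 high in replicate 4 at 15.4 CPM (2.27 to 3.55). No cause was tested.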

How the results depend on the processing

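The direction of every call made in control and in TRF2 MuSC-cKO cells after injury was kept under each alternative that could be fitted. In control, where 29 members were called, 17 were with at least 10 counts in every library (22 members tested, 13 of the 17 among the 29, 14% of all genes called higher) and 19, all among the 29, with all 16 libraries in 1 fit (5.12% of all genes), which lost STING, RIG-I, Irf9, Trim25, Usp18, Ifit1, Cmpk2, Rtp4, Gbp3 and Dtx3l. The length-scaled table called 25, without RIG-I, MDA5, Cmpk2 and Rtp4, and in TRF2 MuSC-cKO 2 of 38, without Mx1. Limma's robust fit called 30 in control. It lost RIG-I and Rtp4 of the 29 and added Herc6 (limma adjusted p = 0.00768), Ifi44 (0.000934) and Tbk1 (0.00656). Leaving out each library in turn gave 25 to 29. In TRF2 MuSC-cKO, where 3 were called, the 10-count minimum left 16 members and called 3 others (6.66% of all genes higher), DESeq2 gave 5 (3.9%), limma's robust fit 7 (3.75%) and the fit of all 16 libraries 11 (4.29%), where 2.43% of all genes were called higher beside the 3. Leaving out each library gave 1 to 11, the lowest without uninjured replicate 2 (1.48%) and the highest without 3 DPI replicate 3 (5.16%). The cause was not tested. Limma called 2 members between uninjured genotypes and 2 in the interaction, where edgeR called 0 in both and DESeq2 gave no adjusted p for 17 of 32 and 16 of 41 members. No alternative called a member between genotypes at 3 DPI, where DESeq2 gave 14 of 41 an adjusted p. With the replicate block, the counts were 27 in control injury, where Cmpk2 and Usp18 were lost, 2 in TRF2 MuSC-cKO injury, where Irf7 was lost, and 0 in each other comparison. Library size alone in place of TMM moved the median of all genes from 0.07 to 0.23 in control injury and from 0.06 to 0.24 between uninjured genotypes, and changed no call count by more than 1.5 times. Depth limits the low members: 9 of 41 could not be tested between uninjured genotypes.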
